A study of Mus musculus with 33 samples.

Results

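The mitosis and cytokinesis module is a set of 51 mouse genes whose products drive a cell through the G2/M transition, chromosome segregation and cell division. The members were named by symbol and matched to the Ensembl gene identifiers of the count files, where each had 1 identifier among 37583. All 51 were detected well enough to be tested, and the lowest count of any member in any library was 58 reads, for Kif18a in MEF replicate 3. The transcripts of the module were followed by RNA-seq while mouse embryonic fibroblasts (MEFs) were reprogrammed toward induced pluripotent stem (iPS) cells, in 11 groups with 3 libraries apiece. SSEA1 is a carbohydrate surface antigen of mouse pluripotent cells that reprogramming cells gain, and cells were sorted by it into a positive (SSEA1+) and a negative (SSEA1-) fraction. The groups were SSEA1+ cells at days 3, 6, 9 and 12 and at the iPS stage, SSEA1- cells at the same 5 stages, and MEFs. All came from the strain 129SV/Jae/C57BL6J; cells under reprogramming grew in ES medium with dox and AA, and MEFs grew in MEF medium. Every sorted group, the iPS stage included, carries the label of a reprogramming intermediate, and the factors expressed and the day of the iPS stage are not given in the sources used here. Because the stages differ from MEFs in medium, in dox and AA and in time, these cannot be told apart in any comparison with MEFs. Whether the 3 libraries of a group stem from different cultures or animals is not stated in the labels, and the p-values therefore cover the spread among libraries alone, which may be technical.

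Mitosis starts when CDK1 bound to cyclin B is activated by CDC25 phosphatases, and it runs through the Polo and Aurora kinases, kinesin motors and condensins that build the spindle and compact chromosomes. The spindle assembly checkpoint holds back the anaphase-promoting complex until all kinetochores are attached, after which securin and cyclin B are degraded, separase cuts cohesin, and the central spindle places the cleavage furrow. Transcripts of these genes accumulate in G2 and M phase and are scarce in G1 and in resting cells, through the DREAM and MYB-MuvB complexes and the transcription factor FOXM1. Mouse pluripotent cells are known for rapid division with a short G1 phase.

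Promoter windows were read to show what the members share in sequence. The CHR (cell cycle genes homology region, letters TTTGAA) is a site through which DREAM and MYB-MuvB bind G2/M promoters, the CDE (cell cycle-dependent element, letters GGCGG) is often paired with it, and CCAAT is the core of the NF-Y site. RefSeq windows on build GRCm38.p6, 250 bases before to 50 bases after the start of a gene, were found for 43 of the 51 members and searched on both strands. The CHR letters stood in 30 of those 43 windows (69.8%), against 20.2% of all 27025 windows in the table and 14.4% of the 12291 windows of tested genes. CCAAT stood in 31 members (72.1%), against 41.1% of all genes with a window and 42.3% of the tested ones. The CDE letters stood in 39 members (90.7%), but they were common among tested genes too, in 81.5%. Both CHR and CCAAT were found in 26 members and in 9.0% of all genes with a window. Neither was found in 8 members, Birc5, Kif18a, Mad2l1, Ncaph, Nuf2, Nusap1, Plk4 and Pttg1. A match is a description of letters, and no binding was measured.

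The first 5 windows shown belong to members that hold both CHR and CCAAT and that act at successive steps of mitosis, the kinase Cdk1, cyclin B2 (Ccnb2), Polo-like kinase 1 (Plk1), and the anaphase activators Cdc20 and Ube2c. They lie at chr10:69352863-69353062 (minus strand), chr9:70421505-70421704 (minus strand), chr7:122159285-122159484 (plus strand), chr4:118437294-118437493 (minus strand) and chr2:164769779-164769978 (plus strand) of GRCm38.p6. Each runs 5′ to 3′ over 150 bases before the gene's start and 50 bases after it. Capitals mark TTTGAA or CCAAT, or the same letters on the other strand, TTCAAA or ATTGG.

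Cdk1: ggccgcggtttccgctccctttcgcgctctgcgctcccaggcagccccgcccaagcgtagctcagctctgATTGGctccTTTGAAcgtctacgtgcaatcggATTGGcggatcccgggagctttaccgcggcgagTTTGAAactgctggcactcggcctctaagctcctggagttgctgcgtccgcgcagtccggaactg

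Ccnb2: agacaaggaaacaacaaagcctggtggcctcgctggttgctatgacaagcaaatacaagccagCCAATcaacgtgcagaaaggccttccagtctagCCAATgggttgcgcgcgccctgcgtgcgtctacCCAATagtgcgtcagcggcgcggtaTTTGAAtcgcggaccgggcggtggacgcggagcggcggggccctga

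Plk1: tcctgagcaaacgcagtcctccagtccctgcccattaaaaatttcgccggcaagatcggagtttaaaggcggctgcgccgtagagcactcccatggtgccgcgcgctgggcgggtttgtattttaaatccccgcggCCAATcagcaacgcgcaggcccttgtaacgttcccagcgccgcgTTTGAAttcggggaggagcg

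Cdc20: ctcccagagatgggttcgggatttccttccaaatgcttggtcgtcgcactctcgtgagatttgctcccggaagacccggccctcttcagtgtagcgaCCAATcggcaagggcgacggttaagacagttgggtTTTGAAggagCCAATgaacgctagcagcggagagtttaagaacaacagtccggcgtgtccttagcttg

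Ube2c: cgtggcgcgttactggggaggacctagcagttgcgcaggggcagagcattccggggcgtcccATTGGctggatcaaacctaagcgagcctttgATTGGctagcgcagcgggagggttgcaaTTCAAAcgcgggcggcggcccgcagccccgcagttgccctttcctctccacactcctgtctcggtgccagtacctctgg

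The next 3 windows belong to the members whose levels followed the rest of the module least closely, the phosphatase Cdc25b, securin (Pttg1) and the spindle protein Ckap2. They lie at chr2:131186798-131186997 (plus strand), chr11:43425932-43426131 (minus strand) and chr8:22185770-22185969 (minus strand), with capitals as above. In these 200 bases the TTTGAA letters were found 1 time in Ckap2 and not in Cdc25b or Pttg1. For day 3 SSEA1+ cells over MEFs, the median log2 change was 1.67 in the 30 members with CHR letters and 1.70 in 13 without. For SSEA1+ over SSEA1- cells the medians were 1.85 and 1.68 at day 12 and 1.51 and 1.24 at the iPS stage. Whether the letters bear on the levels was not tested.

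Cdc25b: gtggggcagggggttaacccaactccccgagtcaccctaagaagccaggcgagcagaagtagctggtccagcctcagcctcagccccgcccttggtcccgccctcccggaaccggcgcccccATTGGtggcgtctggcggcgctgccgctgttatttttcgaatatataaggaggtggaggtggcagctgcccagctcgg

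Pttg1: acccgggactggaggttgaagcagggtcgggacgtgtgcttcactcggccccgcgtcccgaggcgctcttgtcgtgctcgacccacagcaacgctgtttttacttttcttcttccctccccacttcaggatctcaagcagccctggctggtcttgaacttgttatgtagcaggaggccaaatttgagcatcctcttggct

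Ckap2: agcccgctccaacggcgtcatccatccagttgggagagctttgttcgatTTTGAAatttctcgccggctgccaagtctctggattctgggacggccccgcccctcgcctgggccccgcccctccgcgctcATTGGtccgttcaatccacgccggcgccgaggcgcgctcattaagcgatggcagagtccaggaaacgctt

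Before the values are read, several libraries need to be known. Total gene counts ran from 8.93 to 41.69 M reads per library, and replicates of a group correlated at 0.905 to 0.991 across genes. MEF replicate 1 held more of every member than MEF replicates 2 and 3, by a ratio to their mean of 1.56 (Bub3) to 3.52 (Birc5) with a median of 2.51, while replicate 3 over replicate 2 had a median ratio of 1.03. Comparisons with MEFs are therefore given with and without it. Day 6 and day 9 SSEA1- replicate 3 and iPS-stage SSEA1- replicate 3 stood above the other 2 libraries of their groups. Fibroblast markers (15 genes such as Col1a1 and Thy1) summed to 85000 to 93565 CPM in MEFs, and pluripotent markers (12 genes such as Nanog and Zfp42) to 5662 to 7981 CPM in iPS-stage SSEA1+ libraries, which is where the labels place them. In iPS-stage SSEA1- libraries, by contrast, pluripotent markers summed to 285, 594 and 3147 CPM in replicates 1, 2 and 3, beside fibroblast markers of 9288, 17290 and 17940 CPM. Macrophage markers (12 genes) were highest in replicate 2 of every group. They summed there to 200 CPM in MEFs, 55.1 to 779 CPM in SSEA1- cells and 9.45 to 105 CPM in SSEA1+ cells. MEF replicates 1 and 3 had 5.69 and 33.8 CPM, and SSEA1- replicates 1 and 3 had 10.6 to 47.4 CPM.

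In SSEA1+ cells the module stayed high at every stage, and in SSEA1- cells it was nearly as high at day 3 and much lower from day 6 on. Levels are TMM-normalised CPM, read counts relative to the total of a library, and the module's level in a library is the mean of log2(CPM + 1) over the 51 members. In SSEA1+ cells this was 7.43 ± 0.04 at day 3, 7.10 ± 0.04 at day 6, 7.03 ± 0.12 at day 9, 7.26 ± 0.20 at day 12 and 7.52 ± 0.07 at the iPS stage (SD, n = 3 each). In SSEA1- cells it was 7.26 ± 0.12 at day 3, 6.23 ± 0.38 at day 6, 5.59 ± 0.50 at day 9, 5.61 ± 0.21 at day 12 and 6.11 ± 0.35 at the iPS stage (SD, n = 3 each). MEF libraries stood at 6.52, 5.18 and 5.24. All SSEA1+ libraries and all day 3 SSEA1- libraries lay above MEF replicate 1, while the SSEA1- libraries of days 9 and 12 lay between MEF replicates 1 and 2. In these bulk samples fewer dividing cells and less of each transcript per dividing cell cannot be told apart.

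**Figure D1:**
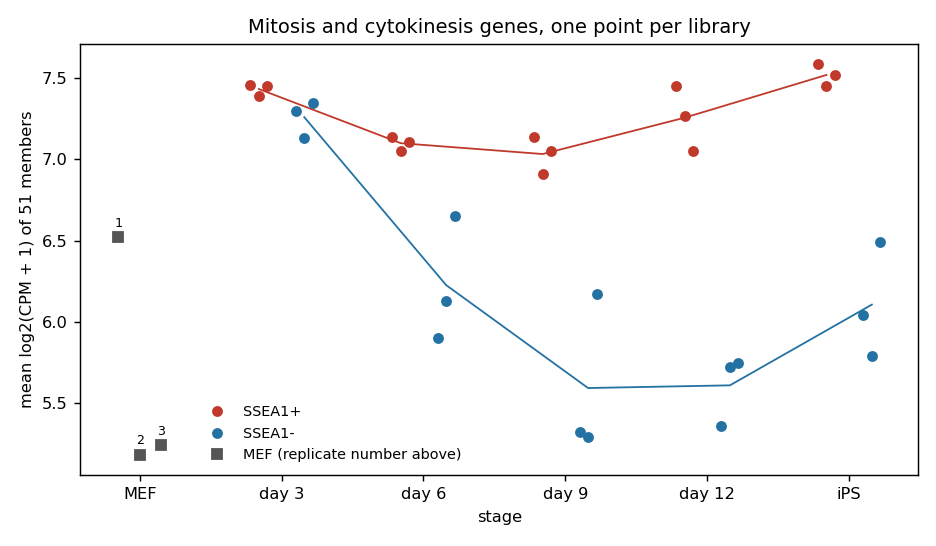
Mean log2(CPM + 1) over the 51 members in each of the 33 libraries (y axis) by stage (x axis), with SSEA1+ and SSEA1- cells and MEFs marked apart; each point is 1 library. SSEA1+ libraries stay between 6.91 and 7.59, SSEA1- libraries fall to between 5.29 and 6.17 at day 9, and MEF replicate 1 stands at 6.52 above the other MEF libraries.

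The members moved together across libraries. Over the 33 libraries, which share group structure and normalisation, the correlation of a member with the mean of the other 50 on the log2 scale had a median of 0.96 and was at least 0.9 in 42 members. It was lowest for Ckap2 (0.65), Cdc25b (0.69) and Pttg1 (0.73). By group mean, 28 members were highest in iPS-stage SSEA1+ cells, 15 in day 3 SSEA1+ cells and 8 in day 3 SSEA1- cells. The lowest group was day 12 SSEA1- cells for 20 members, day 9 SSEA1- cells for 17, MEFs for 12 and iPS-stage SSEA1- cells for 2. The ratio of the highest to the lowest stage mean within SSEA1+ cells had a median of 1.65, from 1.20 (Bub3) to 3.26 (Pttg1), and within SSEA1- cells a median of 3.35, from 1.82 (Pttg1) to 4.48 (Ccna2). Per kilobase of exon, the mean level over all libraries was highest for Cdc20 (103 CPM per kb), Ccnb2 (70.8) and Top2a (59.5) and lowest for Kif18a (3.45).

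**Figure D2:**
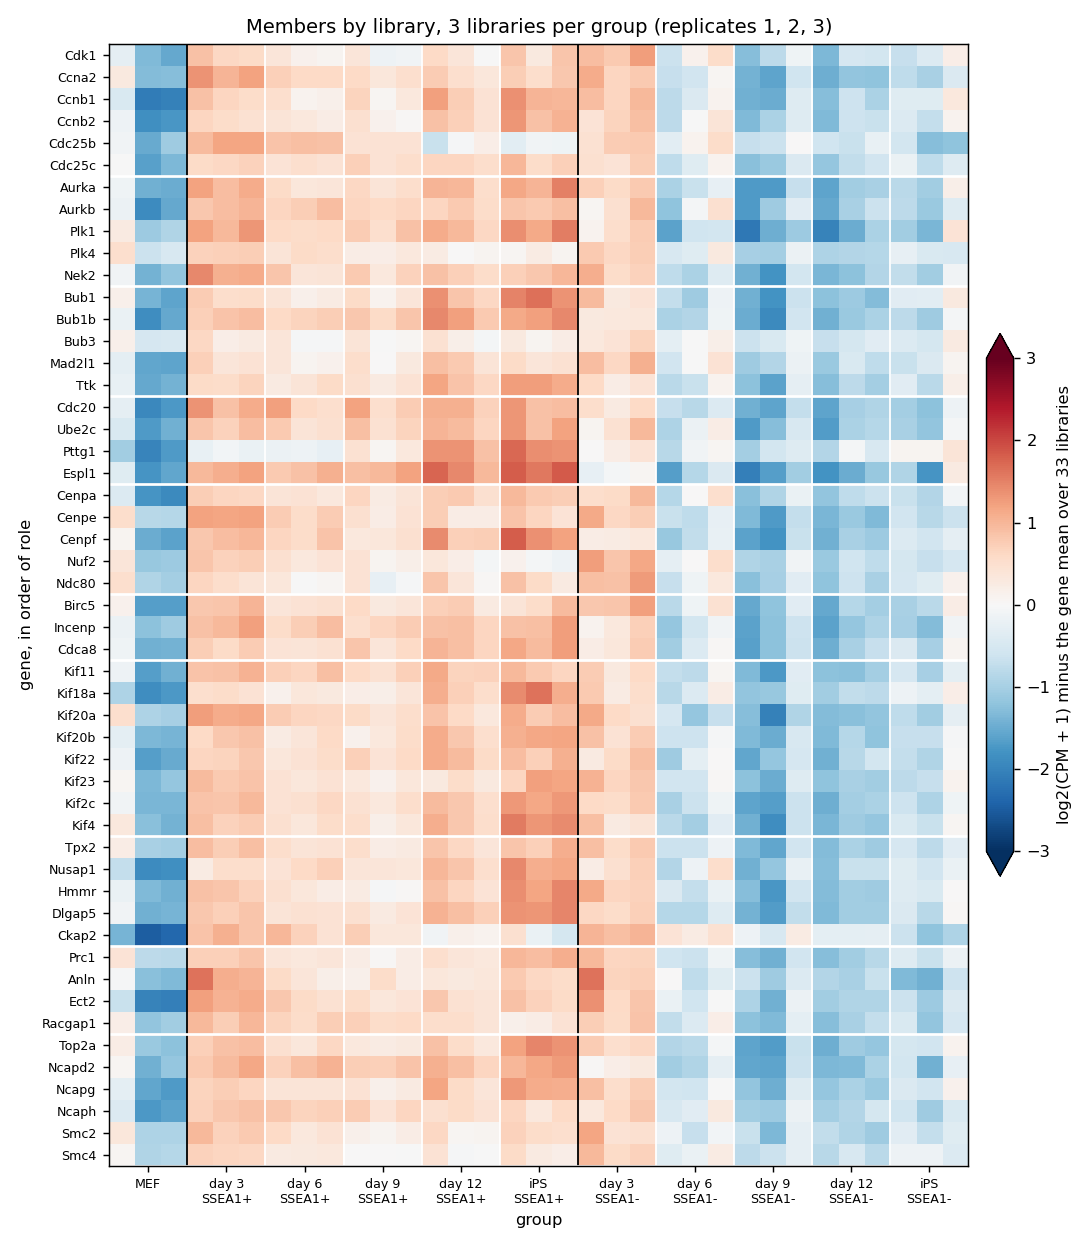
Heat map of the 51 members (rows, grouped by role) in the 33 libraries (columns); colour gives each member's log2 level relative to its own mean over all libraries. Most rows share 1 pattern, high in SSEA1+ and day 3 SSEA1- libraries and low in MEF replicates 2 and 3 and later SSEA1- libraries, and Ckap2, Cdc25b and Pttg1 depart from it most.

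The values of single members follow in the order of their roles. Tests came from one edgeR quasi-likelihood fit of all 33 libraries, with p-values adjusted by Benjamini and Hochberg over all 17326 genes tested. A member was called higher or lower at an adjusted p under 0.05 and a change of at least 2-fold, and changes are given as log2 of the first group over the second.

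Cdk1, the kinase that triggers mitosis, had 251, 212 and 202 CPM at day 3, 176, 148 and 144 CPM at day 6, 176, 122 and 126 CPM at day 9, 206, 176 and 136 CPM at day 12, and 242, 168 and 243 CPM at the iPS stage in SSEA1+ cells. In SSEA1- cells Cdk1 had 260, 236 and 325 CPM at day 3, 86.7, 149 and 201 CPM at day 6, 55.7, 78.1 and 124 CPM at day 9, 53.1, 95.8 and 93.3 CPM at day 12, and 84.6, 102 and 158 CPM at the iPS stage. MEFs had 113, 53.8 and 46.2 CPM. The fractions overlapped at days 3, 6 and 9 and were apart at day 12, where the change was 1.10 ± 0.33 (SE, adjusted p = 0.0082). That call was lost without day 12 SSEA1- replicate 1 (0.83) or day 12 SSEA1+ replicate 1 (0.95). Ccna2, cyclin A2, which acts in S phase and early mitosis, had 424, 335 and 379 CPM at day 3, 273, 252 and 250 CPM at day 6, 249, 208 and 234 CPM at day 9, 281, 235 and 209 CPM at day 12, and 276, 237 and 289 CPM at the iPS stage in SSEA1+ cells. In SSEA1- cells Ccna2 had 357, 258 and 286 CPM at day 3, 102, 110 and 173 CPM at day 6, 61, 54.3 and 109 CPM at day 9, 59, 71.9 and 70.4 CPM at day 12, and 96.1, 83.1 and 122 CPM at the iPS stage. MEF libraries had 203, 65.9 and 67.2 CPM of Ccna2. From day 6 every SSEA1+ library was above every SSEA1- library, and every SSEA1- library from day 6 was below MEF replicate 1. Day 12 SSEA1- cells were lower than day 3 SSEA1- cells by -2.16 ± 0.32 (SE, adjusted p = 4.2e-05), the largest fall of any member in that comparison. Ccnb1, cyclin B1, the activating partner of CDK1, had 220, 186 and 174 CPM at day 3, 168, 128 and 131 CPM at day 6, 190, 123 and 148 CPM at day 9, 281, 199 and 161 CPM at day 12, and 306, 240 and 237 CPM at the iPS stage in SSEA1+ cells. In SSEA1- cells Ccnb1 had 227, 185 and 233 CPM at day 3, 68.2, 87.1 and 128 CPM at day 6, 43.2, 41.8 and 89.8 CPM at day 9, 48.4, 77.2 and 61 CPM at day 12, and 91.7, 92.6 and 147 CPM at the iPS stage. MEFs held 86.6, 27.1 and 28.4 CPM of Ccnb1. The 2 fractions overlapped at day 3, and at days 9, 12 and the iPS stage they did not, with a change of 1.78 ± 0.36 (SE, adjusted p = 2.6e-04) at day 12. Ccnb2, cyclin B2, had 149, 138 and 130 CPM at day 3, 124, 117 and 110 CPM at day 6, 133, 103 and 96.7 CPM at day 9, 175, 156 and 127 CPM at day 12, and 239, 174 and 196 CPM at the iPS stage in SSEA1+ cells. In SSEA1- cells Ccnb2 had 126, 152 and 178 CPM at day 3, 54, 94.1 and 123 CPM at day 6, 37, 48.6 and 72.1 CPM at day 9, 37.1, 61.1 and 59 CPM at day 12, and 71.3, 57.4 and 101 CPM at the iPS stage. MEF libraries held 84.4, 25.9 and 27.4 CPM of Ccnb2. Its pattern was that of Ccnb1, with the day 9 and day 12 SSEA1- libraries between MEF replicate 1 and the other MEFs.

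Cdc25b, a phosphatase that activates CDK1, differed from the cyclins. In SSEA1+ cells Cdc25b had 118, 139 and 138 CPM at day 3, 111, 113 and 112 CPM at day 6, 81.4, 81.7 and 81.5 CPM at day 9, 37.9, 58.8 and 69.1 CPM at day 12, and 48.4, 55.9 and 55.5 CPM at the iPS stage. In SSEA1- cells it had 83.7, 104 and 105 CPM at day 3, 48.1, 65.5 and 88.5 CPM at day 6, 36.8, 38.6 and 61 CPM at day 9, 39.4, 37.5 and 51.9 CPM at day 12, and 40.9, 24.5 and 25.7 CPM at the iPS stage. MEFs had 56.2, 20.4 and 28.1 CPM of Cdc25b. SSEA1+ libraries were lower at day 12 and the iPS stage than at days 3 and 6, and the fractions overlapped at day 12. The change between the fractions at day 12 was 0.36 ± 0.28 (SE, adjusted p = 0.29), and iPS-stage SSEA1+ cells were lower than day 3 SSEA1+ cells by -1.30 ± 0.29 (SE, adjusted p = 4.2e-04), the only member called lower there. Cdc25c, the other CDC25 member of the module, was called higher at day 12 in SSEA1+ than SSEA1- cells, by 1.48 ± 0.31 (SE, adjusted p = 3.3e-04). Cdc25b shares exonic sequence on the opposite strand with Spef1, Ccna2 with Exosc9 and Cdc25c with Gm3550. Counts were made without strand, so reads from the shared stretches cannot be assigned to 1 gene of a pair. A processed copy, Ccnb2-ps, had at most 111 reads in a library and Ccnb1-ps at most 15.

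Plk1, the Polo-like kinase of mitotic entry, spindle and cytokinesis, had 224, 191 and 242 CPM at day 3, 146, 141 and 147 CPM at day 6, 164, 137 and 178 CPM at day 9, 209, 190 and 148 CPM at day 12, and 254, 213 and 281 CPM at the iPS stage in SSEA1+ cells. In SSEA1- cells Plk1 had 104, 140 and 164 CPM at day 3, 30.8, 63.1 and 65.4 CPM at day 6, 21.1, 34.2 and 44.5 CPM at day 9, 23.2, 33.5 and 49.3 CPM at day 12, and 46.2, 36.3 and 128 CPM at the iPS stage. MEFs had 117, 44.7 and 50.8 CPM of Plk1. Every SSEA1+ library was above every SSEA1- library of its stage, and the day 9 SSEA1- libraries were all below the lowest MEF library. The change between the fractions was 2.36 ± 0.41 (SE, adjusted p = 4.2e-05) at day 12 and 1.83 ± 0.40 (SE, adjusted p = 5.1e-04) at the iPS stage. Aurka, Aurora A, the kinase of centrosome maturation and spindle poles, had 181, 147 and 168 CPM at day 3, 115, 97.7 and 99.2 CPM at day 6, 120, 101 and 113 CPM at day 9, 157, 155 and 112 CPM at day 12, and 175, 159 and 223 CPM at the iPS stage in SSEA1+ cells. In SSEA1- cells Aurka had 128, 116 and 135 CPM at day 3, 39.6, 48.1 and 64.8 CPM at day 6, 23.3, 23.1 and 47.4 CPM at day 9, 25.1, 36.8 and 39 CPM at day 12, and 44, 37.4 and 87.7 CPM at the iPS stage. MEFs held 70.5, 27.7 and 26.9 CPM of Aurka. Its fractions did not overlap at any stage, and the change at day 12 was 2.07 ± 0.34 (SE, adjusted p = 2.4e-05). Aurkb, Aurora B, the kinase of the chromosomal passenger complex, had 129, 140 and 150 CPM at day 3, 114, 123 and 139 CPM at day 6, 114, 111 and 115 CPM at day 9, 114, 126 and 107 CPM at day 12, and 131, 127 and 137 CPM at the iPS stage in SSEA1+ cells. In SSEA1- cells Aurkb had 76.3, 102 and 145 CPM at day 3, 31.2, 70.7 and 102 CPM at day 6, 22, 34.3 and 57.7 CPM at day 9, 24.5, 37 and 46.7 CPM at day 12, and 42.2, 33 and 55.9 CPM at the iPS stage. MEFs came to 64.3, 18.9 and 24.6 CPM of Aurkb. Within each SSEA1- group of days 3 to 12 replicate 3 was the highest, and the fractions were apart from day 6. Nek2, a kinase of centrosome separation, was higher at day 12 in SSEA1+ than SSEA1- cells by 1.92 ± 0.32 (SE, adjusted p = 2.9e-05). Plk4, the kinase of centriole duplication, was called there too (1.02 ± 0.24 SE, adjusted p = 9.2e-04), but it was not called in SSEA1+ cells over MEFs at day 3 (0.84 ± 0.24 SE, adjusted p = 0.0051).

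In the spindle assembly checkpoint, Bub1, a kinetochore kinase, had 142, 119 and 122 CPM at day 3, 109, 92 and 98.8 CPM at day 6, 123, 89.6 and 106 CPM at day 9, 217, 148 and 128 CPM at day 12, and 235, 261 and 211 CPM at the iPS stage in SSEA1+ cells. In SSEA1- cells Bub1 had 162, 102 and 110 CPM at day 3, 49.7, 39 and 74.4 CPM at day 6, 29.6, 23.1 and 52.6 CPM at day 9, 34.8, 38.1 and 33 CPM at day 12, and 65.2, 66 and 101 CPM at the iPS stage. MEFs had 92.5, 30.6 and 27.1 CPM of Bub1. The mean was highest in iPS-stage SSEA1+ cells, and the SSEA1- libraries of day 12 lay a little above MEF replicates 2 and 3. The change between the fractions at day 12 was 2.22 ± 0.36 (SE, adjusted p = 2.1e-05). Over MEFs, day 3 SSEA1+ cells were higher by 1.34 ± 0.35 (SE, adjusted p = 0.0026), a call lost without MEF replicate 2 (0.99) or 3 (0.95). Bub1b, which encodes BUBR1 of the mitotic checkpoint complex, was higher in SSEA1+ than SSEA1- cells at day 12 by 2.35 ± 0.35 (SE, adjusted p = 9.7e-06). Ttk, the kinase MPS1, was higher by 1.97 ± 0.33 (SE, adjusted p = 3.5e-05), and Mad2l1, which encodes the checkpoint protein MAD2, by 1.48 ± 0.31 (SE, adjusted p = 3.1e-04). Bub3, which carries BUB1 and BUBR1 to kinetochores, averaged 138 ± 25.2 CPM in day 12 SSEA1+ cells and 84 ± 9.76 CPM in day 12 SSEA1- cells (SD, n = 3 each). That difference, 0.72 ± 0.21 (SE, adjusted p = 0.0066), stayed under 2-fold, and Bub3 was called in none of the 27 comparisons made here.

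Among genes of anaphase onset, Cdc20, an activator of the anaphase-promoting complex, had 389, 283 and 334 CPM at day 3, 360, 232 and 218 CPM at day 6, 357, 219 and 262 CPM at day 9, 321, 320 and 248 CPM at day 12, and 386, 282 and 291 CPM at the iPS stage in SSEA1+ cells. In SSEA1- cells Cdc20 had 221, 185 and 233 CPM at day 3, 94, 85.9 and 116 CPM at day 6, 55.5, 50.2 and 93.2 CPM at day 9, 50.8, 76.2 and 82 CPM at day 12, and 75.1, 64.6 and 139 CPM at the iPS stage. MEFs had 127, 39.3 and 45.8 CPM of Cdc20. The fractions were apart at every stage, with a change of 2.09 ± 0.36 (SE, adjusted p = 3.9e-05) at day 12, and SSEA1+ replicate 1 was the highest of its group at every stage. Espl1, separase, the protease that cuts cohesin, had 160, 173 and 186 CPM at day 3, 139, 148 and 170 CPM at day 6, 152, 159 and 187 CPM at day 9, 271, 221 and 158 CPM at day 12, and 286, 244 and 290 CPM at the iPS stage in SSEA1+ cells. In SSEA1- cells Espl1 had 67.7, 77.4 and 83.6 CPM at day 3, 25, 44 and 59.1 CPM at day 6, 18.7, 25.1 and 38.6 CPM at day 9, 22.6, 28.2 and 35.9 CPM at day 12, and 43, 23.1 and 98.2 CPM at the iPS stage. MEFs held 62.5, 23.1 and 26.6 CPM of Espl1. It had the widest gap between the fractions of any member at every stage from day 3, and its fractions did not overlap at any stage. The change was 2.60 ± 0.41 (SE, adjusted p = 3.3e-05) at day 9, 2.91 ± 0.41 (SE, adjusted p = 4.5e-06) at day 12 and 2.32 ± 0.40 (SE, adjusted p = 3.9e-05) at the iPS stage. Pttg1, securin, the inhibitor of separase, had 43.7, 48.4 and 44.8 CPM at day 3, 45.8, 46.1 and 43.5 CPM at day 6, 71.6, 54.1 and 64.7 CPM at day 9, 133, 133 and 95.5 CPM at day 12, and 173, 136 and 132 CPM at the iPS stage in SSEA1+ cells. In SSEA1- cells Pttg1 had 51.6, 60.6 and 68.4 CPM at day 3, 28.5, 48.2 and 54 CPM at day 6, 24.9, 34.6 and 39.5 CPM at day 9, 27.4, 49.1 and 36.4 CPM at day 12, and 54.6, 54.2 and 67.2 CPM at the iPS stage. MEFs came to 24.5, 12.3 and 15.3 CPM of Pttg1. At day 3 every SSEA1- library was above every SSEA1+ library, and from day 9 every SSEA1+ library was above every SSEA1- library. Every sorted library was above every MEF library, and iPS-stage SSEA1+ cells were higher than day 3 SSEA1+ cells by 1.69 ± 0.25 (SE, adjusted p = 3.2e-06). Ube2c, the ubiquitin-conjugating enzyme of the anaphase-promoting complex, was higher in SSEA1+ than SSEA1- cells at day 12 by 2.02 ± 0.36 (SE, adjusted p = 5.6e-05). Cdc20 shares exonic sequence on the opposite strand with Elovl1 and Ube2c with Tnnc2, so reads from the shared stretches cannot be assigned to 1 gene of a pair.

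At the centromere, Cenpa, the histone H3 variant that marks it, had 157, 147 and 144 CPM at day 3, 123, 128 and 118 CPM at day 6, 148, 112 and 124 CPM at day 9, 158, 164 and 131 CPM at day 12, and 186, 163 and 157 CPM at the iPS stage in SSEA1+ cells. In SSEA1- cells Cenpa had 135, 141 and 184 CPM at day 3, 51.7, 95.5 and 133 CPM at day 6, 39.1, 50 and 81.5 CPM at day 9, 41.1, 54.9 and 59.5 CPM at day 12, and 59, 50.5 and 88.3 CPM at the iPS stage. MEFs had 70.4, 26.7 and 24.4 CPM of Cenpa. The fractions overlapped at days 3 and 6 and not from day 9, and the change at day 12 was 1.54 ± 0.33 (SE, adjusted p = 4.5e-04). Cenpe, a kinetochore kinesin, and Cenpf, a kinetochore protein, were higher in SSEA1+ cells at day 12 by 1.70 ± 0.28 (SE, adjusted p = 2.6e-05) and 2.16 ± 0.34 (SE, adjusted p = 1.8e-05). Of the NDC80 complex, which binds microtubules, Ndc80 was higher by 1.41 ± 0.34 (SE, adjusted p = 0.0014) and Nuf2 by 1.01 ± 0.29 (SE, adjusted p = 0.0058). The call of Nuf2 was at the limit of 2-fold, since with replicate number as a block the change was 0.99. Of the chromosomal passenger subunits, Birc5, survivin, had 130, 134 and 152 CPM at day 3, 95.2, 100 and 105 CPM at day 6, 114, 92.1 and 95.8 CPM at day 9, 122, 127 and 90.6 CPM at day 12, and 97.1, 109 and 144 CPM at the iPS stage in SSEA1+ cells. In SSEA1- cells Birc5 had 131, 134 and 177 CPM at day 3, 41.8, 67.5 and 103 CPM at day 6, 25.1, 31.8 and 58.2 CPM at day 9, 25, 40.6 and 35.9 CPM at day 12, and 37.7, 42.3 and 86.9 CPM at the iPS stage. MEFs held 81.1, 23.1 and 23 CPM of Birc5. MEF replicate 1 was further above the other MEFs for Birc5 than for any other member, and the fractions were apart from day 9. Incenp, the scaffold of the complex, and Cdca8, borealin, were higher in SSEA1+ cells at day 12 by 2.03 ± 0.32 (SE, adjusted p = 1.4e-05) and 1.91 ± 0.33 (SE, adjusted p = 4.5e-05). Cdca8 shares exonic sequence with 9930104L06Rik on the other strand.

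Among the 8 kinesins, Kif11, the motor that pushes spindle poles apart, had 236, 240 and 267 CPM at day 3, 212, 204 and 241 CPM at day 6, 196, 178 and 213 CPM at day 9, 284, 207 and 208 CPM at day 12, and 256, 223 and 204 CPM at the iPS stage in SSEA1+ cells. In SSEA1- cells Kif11 had 220, 158 and 197 CPM at day 3, 79, 74.2 and 134 CPM at day 6, 51.3, 38.4 and 102 CPM at day 9, 54.9, 53.9 and 62.8 CPM at day 12, and 91.4, 64.5 and 105 CPM at the iPS stage. MEFs had 116, 40.6 and 47.2 CPM of Kif11. The fractions were apart at every stage, and the change at day 12 was 2.02 ± 0.33 (SE, adjusted p = 2.2e-05). All 8 kinesins were called higher in SSEA1+ than SSEA1- cells at day 12, over a range of 1.47 to 2.05. Besides Kif11 these are the kinesins Kif18a, which aligns chromosomes, Kif2c, which depolymerises microtubules, Kif20a, Kif20b and Kif23 of the midzone and cytokinesis, and Kif4 and Kif22 of chromosome arms. Kif18a, the member with the lowest level per kilobase, averaged 77.2 ± 14.2 CPM in iPS-stage SSEA1+ cells, 27.6 ± 5.16 CPM in iPS-stage SSEA1- cells and 9.97 ± 4.02 CPM in MEFs (SD, n = 3 each). Over MEFs, its change was 2.94 ± 0.29 (SE, adjusted p = 3.1e-09) at the iPS stage in SSEA1+ cells. Kif18a, Kif20a and Kif4 share exonic sequence with opposite-strand genes. Of the spindle factors, Ckap2, a microtubule stabiliser, had 250, 289 and 249 CPM at day 3, 276, 226 and 187 CPM at day 6, 231, 175 and 175 CPM at day 9, 128, 155 and 149 CPM at day 12, and 195, 120 and 95.9 CPM at the iPS stage in SSEA1+ cells. In SSEA1- cells Ckap2 had 284, 260 and 283 CPM at day 3, 185, 164 and 189 CPM at day 6, 124, 99.7 and 164 CPM at day 9, 112, 113 and 114 CPM at day 12, and 88.8, 59.9 and 72.9 CPM at the iPS stage. MEFs came to 51.7, 24.1 and 26.3 CPM of Ckap2. Every sorted library was above every MEF library, and the level declined in both fractions after day 3. The change between the fractions at day 12 was 0.35 ± 0.25 (SE, adjusted p = 0.24), which was not called, whereas day 3 SSEA1+ cells were above MEFs by 2.94 ± 0.27 (SE, adjusted p = 4.5e-09), the largest change of any member there. Tpx2, an activator of Aurora A, Nusap1, Hmmr and Dlgap5, which bind spindle microtubules, were all called higher in SSEA1+ cells at day 12, by 1.73, 1.65, 1.81 and 2.07. Nusap1 shares exonic sequence with Oip5 on the other strand.

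For cytokinesis, Prc1, the bundler of the central spindle, had 232, 233 and 251 CPM at day 3, 181, 176 and 182 CPM at day 6, 164, 144 and 166 CPM at day 9, 202, 183 and 176 CPM at day 12, and 282, 268 and 302 CPM at the iPS stage in SSEA1+ cells. In SSEA1- cells Prc1 had 277, 221 and 225 CPM at day 3, 93.2, 89.8 and 130 CPM at day 6, 58.1, 51.4 and 95.2 CPM at day 9, 57.4, 68.3 and 78.6 CPM at day 12, and 107, 89.2 and 125 CPM at the iPS stage. MEFs had 187, 81.9 and 79.7 CPM of Prc1. SSEA1+ libraries of days 6 to 12 lay on either side of MEF replicate 1 and above the other MEFs, and every day 12 SSEA1- library was below every MEF library. The fall of SSEA1- cells between days 3 and 12 was -1.82 ± 0.25 (SE, adjusted p = 2.1e-05). At day 3, SSEA1+ cells were above MEFs by 1.04 ± 0.25 (SE, adjusted p = 0.0012), which was no longer called without MEF replicate 2 (0.74), MEF replicate 3 (0.73) or day 3 SSEA1+ replicate 1 (0.99). Anln, anillin of the contractile ring, Ect2, the RhoA exchange factor of the furrow, and Racgap1, its centralspindlin partner, were higher in SSEA1+ than SSEA1- cells at day 12 by 1.15, 1.52 and 1.46. Ect2 averaged 263 ± 16.6 CPM in day 3 SSEA1+ cells and 43.8 ± 26.6 CPM in MEFs (SD, n = 3 each), a change of 2.58 ± 0.32 (SE, adjusted p = 4.3e-07). Top2a, the topoisomerase that untangles sister chromatids, had 747, 830 and 856 CPM at day 3, 635, 569 and 698 CPM at day 6, 559, 533 and 555 CPM at day 9, 830, 665 and 567 CPM at day 12, and 1040, 1254 and 1146 CPM at the iPS stage in SSEA1+ cells. In SSEA1- cells Top2a had 765, 639 and 694 CPM at day 3, 247, 258 and 431 CPM at day 6, 151, 140 and 285 CPM at day 9, 164, 214 and 203 CPM at day 12, and 312, 303 and 482 CPM at the iPS stage. MEFs held 523, 207 and 193 CPM of Top2a. The iPS-stage SSEA1+ libraries were above every other library, and the fractions were apart from day 6, with a change of 1.82 ± 0.31 (SE, adjusted p = 3.3e-05) at day 12. Smc4, an ATPase of condensin, had 395, 385 and 378 CPM at day 3, 296, 301 and 307 CPM at day 6, 250, 250 and 244 CPM at day 9, 331, 241 and 245 CPM at day 12, and 364, 298 and 283 CPM at the iPS stage in SSEA1+ cells. In SSEA1- cells Smc4 had 480, 366 and 400 CPM at day 3, 192, 213 and 292 CPM at day 6, 142, 158 and 205 CPM at day 9, 138, 176 and 141 CPM at day 12, and 221, 222 and 184 CPM at the iPS stage. MEFs came to 257, 132 and 136 CPM of Smc4. The fractions were apart from day 6, but by less than for most members, and the change at day 12, 0.84 ± 0.21 (SE, adjusted p = 0.0017), stayed under 2-fold. The other condensin genes Ncapd2, Ncapg, Ncaph and Smc2 were called at day 12, by 2.09, 1.87, 1.31 and 1.18. Prc1 shares exonic sequence on the opposite strand with Rccd1 and Ncapg with Lcorl. On the same strand, Top2a shares it with Gm23451 and Ncapd2 with Scarna10.

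**Figure D3:**
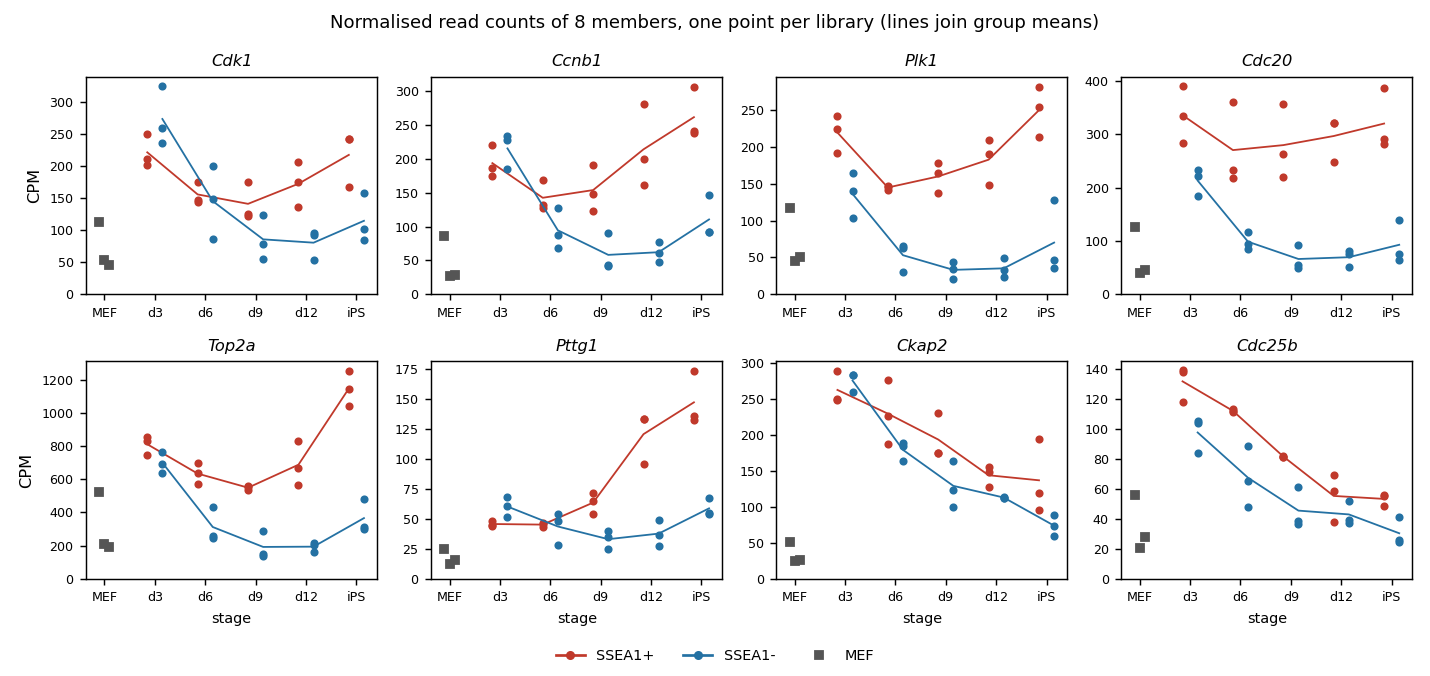
CPM of Cdk1, Ccnb1, Plk1, Cdc20, Top2a, Pttg1, Ckap2 and Cdc25b (y axis, 1 panel per gene, each starting at 0) by stage (x axis), with a point for each library and a line for each fraction's mean. Plk1 and Cdc20 are apart between the SSEA1+ and SSEA1- fractions at every stage and Top2a from day 6, Ccnb1 overlaps at days 3 and 6 and Cdk1 at days 3, 6 and 9, Pttg1 climbs in SSEA1+ cells to 132 to 173 CPM at the iPS stage, and Ckap2 and Cdc25b decline in both fractions.

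Set against MEFs, day 3 cells of both fractions held more of nearly every member. In day 3 SSEA1+ cells 48 members were higher and 0 lower, against 15.6% of all genes tested called higher and 16.7% lower. In day 3 SSEA1- cells 47 were higher and 0 lower, against 15.3% and 14.9% of all genes. The median change of the members was 1.67 in SSEA1+ and 1.48 in SSEA1- cells, beside 0.09 and 0.07 over all genes. The 3 members with the smallest p were Ckap2, Ect2 and Kif18a in both: Ckap2 (3.01 ± 0.27 SE, adjusted p = 1.2e-08 in SSEA1- cells), Ect2 (2.41 ± 0.31 SE, adjusted p = 1.9e-06) and Kif18a (2.07 ± 0.28 SE, adjusted p = 2.8e-06). Not called in SSEA1+ cells were Ndc80, Plk4 and Bub3, and in SSEA1- cells Plk4, Plk1, Ncapd2 and Bub3. In SSEA1+ cells the module stayed above MEFs at each later stage. At day 6, 40 members were higher (16.9% of all genes), at day 9, 36 (20.6%), at day 12, 41 (26.5%), and at the iPS stage 42 (27.9%), with medians of 1.32, 1.27, 1.59 and 1.86. None was lower at these 4 stages, where 16.6%, 18.0%, 20.2% and 22.5% of all genes were. Over all genes those medians were 0.17, 0.21, 0.26 and 0.22. The largest changes were of Pttg1 and Espl1 at day 12 (2.79 and 2.53) and of Pttg1 and Kif18a at the iPS stage (3.07 and 2.94). Without MEF replicate 1 the counts were 50, 50, 47, 48 and 49 in SSEA1+ cells of days 3, 6, 9, 12 and the iPS stage and 50 in day 3 SSEA1- cells, and the SSEA1+ medians were 2.14, 1.84, 1.84, 2.16 and 2.41. Of all genes, 13.6%, 15.1%, 18.7%, 23.6% and 26.2% were then higher in SSEA1+ cells and 13.3% in day 3 SSEA1- cells. Marker sums moved with the day 3 comparisons. Fibroblast markers summed to 1572 to 2264 CPM in day 3 SSEA1+, 3807 to 7456 CPM in day 3 SSEA1- and 85000 to 93565 CPM in MEF libraries, with 0 of 15 at 0 in any group. Endothelial markers (8 genes) summed to 203 to 240 CPM in day 3 SSEA1+, 163 to 274 CPM in day 3 SSEA1- and 5.11 to 10.5 CPM in MEF libraries, with 2, 0 and 1 of them at 0 in all 3 libraries. Pluripotent markers summed to 609 to 671 CPM in day 3 SSEA1+, 116 to 174 CPM in day 3 SSEA1- and 7.53 to 14.2 CPM in MEF libraries, with 0, 1 and 1 of 12 at 0. Their part in the change of the members was not tested.

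In later SSEA1- cells few members were called against MEFs, and their number depended on MEF replicate 1. At day 6, 8 members were higher and 0 lower (15.8% of all genes higher and 12.4% lower), at day 9, 1 higher and 2 lower (14.9% higher and 11.6% lower), at day 12, 2 and 2 (17.0% and 11.1%), and at the iPS stage 5 and 0 (19.1% and 7.70%). With all 3 MEF libraries, all of these shares of 51 were near or below those of all genes. The median changes were 0.41, -0.18, -0.27 and 0.38, beside 0.13, 0.10, 0.12 and 0.19 over all genes. Ckap2 was higher at all 4 stages, by 2.39, 1.92, 1.73 and 1.11. Pttg1 was higher at day 12 by 1.11 ± 0.25 (SE, adjusted p = 9.7e-04), and that call was lost without MEF replicate 2 (0.86), MEF replicate 3 (0.99) or day 12 SSEA1- replicate 2 (0.87). Pttg1 was higher at day 6 and the iPS stage too. Called lower were Kif20a at day 9 (-1.06 ± 0.31 SE, adjusted p = 0.0078), Plk1 at days 9 (-1.10 ± 0.39 SE, adjusted p = 0.029) and 12 (-1.01 ± 0.39 SE, adjusted p = 0.042), and Cenpe at day 12 (-1.04 ± 0.27 SE, adjusted p = 0.0038). Without MEF replicate 1 no member was called lower, and these changes were -0.45, -0.60, -0.49 and -0.48.

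Without MEF replicate 1, 22 members were higher at day 6, 4 at day 9, 4 at day 12 and 23 at the iPS stage, against 12.7%, 11.8%, 12.9% and 15.2% of all genes, with medians of 0.86, 0.26, 0.26 and 0.95. In that fit the share of the members called higher was above that of all genes at day 6 and the iPS stage and below it at days 9 and 12. Without MEF replicate 2, 3 members were higher at day 6, 1 higher and 5 lower at day 9, 1 and 6 at day 12, and 2 higher at the iPS stage. Without MEF replicate 3 the counts were 4 higher at day 6, 1 and 5 at day 9, 1 and 5 at day 12, and 2 at the iPS stage. Over all genes, leaving out MEF replicate 2 or 3 called 11.6 to 15.2% higher and 7.45 to 12.7% lower at these stages, and leaving out 1 SSEA1- library called 12.7 to 18.5% higher and 6.29 to 12.2% lower. The sorted libraries mattered too: the day 6 count was 14 without SSEA1- replicate 1 and 3 without SSEA1- replicate 3. At day 9 it was 2 higher and 1 lower without SSEA1- replicate 1, 1 and 0 without replicate 2, and 1 and 6 without replicate 3. At day 12 it was 2 and 0 without SSEA1- replicate 1, 1 and 1 without replicate 2 and 2 and 3 without replicate 3, and at the iPS stage 3 without SSEA1- replicate 3. All 3 libraries of day 12 SSEA1- cells were below MEF replicate 1 in 47 of 51 members, and above MEF replicates 2 and 3 in 26, against 37.7% and 38.1% of all genes.

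**Figure D4:**
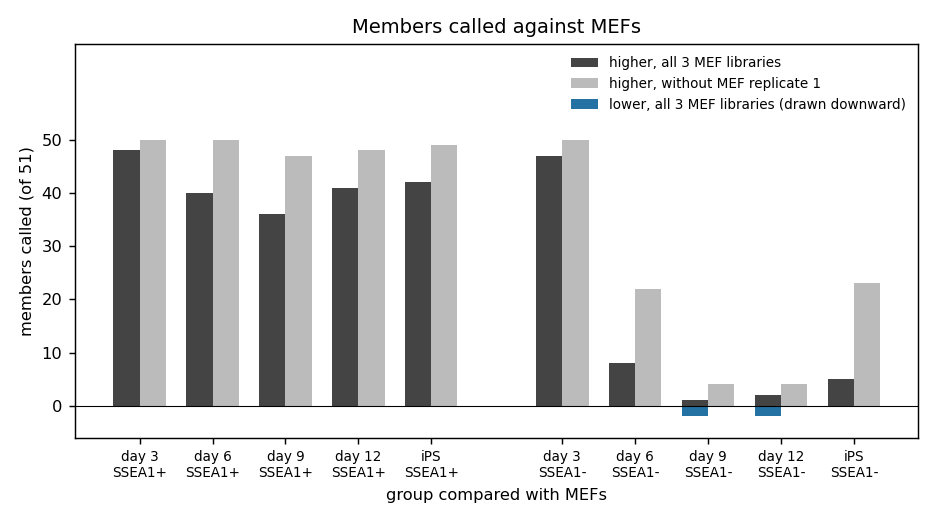
Number of the 51 members called against MEFs (y axis; higher upward, lower downward) for each stage of SSEA1+ and SSEA1- cells (x axis), with all 3 MEF libraries in dark bars and without MEF replicate 1 in light bars. SSEA1+ bars lie between 36 and 50 at every stage, while SSEA1- bars drop after day 3 and depend on MEF replicate 1.

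Between the fractions, 1 member was called at day 3, and at every later stage more were higher in SSEA1+ cells. At day 3 that member, Espl1 (1.18 ± 0.39 SE, adjusted p = 0.046), was higher and 0 were lower, against 2.76% of all genes called higher and 3.91% lower, and without any one of the 6 libraries the count was 0. The median change was 0.16, beside -0.03 over all genes. At day 6, 17 members were higher (6.31% of all genes), at day 9, 40 (11.5%), at day 12, 47 (18.0%), and at the iPS stage 41 (16.0%). None was lower at these 4 stages, where 10.1%, 13.7%, 18.0% and 21.3% of all genes were. The medians were 0.83, 1.40, 1.74 and 1.45, beside -0.01, 0.03, 0.06 and 0.06 over all genes. The libraries of the fractions did not overlap in 15 members at day 3, 38 at day 6, and 50 at each of day 9, day 12 and the iPS stage, against 31.6%, 41.1%, 53.5%, 62.3% and 53.0% of all genes tested. The share of the members at day 3 was thus near that of all genes. At day 6 the smallest p belonged to the condensin subunit Ncapd2 (1.59 ± 0.32 SE, adjusted p = 7.4e-04) and the kinesin Kif20a (1.46 ± 0.31 SE, adjusted p = 0.0012). At day 12 it belonged to Dlgap5 (2.07 ± 0.28 SE, adjusted p = 2.4e-06), followed by Espl1 and Kif20b (1.97 ± 0.29 SE, adjusted p = 6.1e-06), and at the iPS stage to Dlgap5 (1.77 ± 0.27 SE, adjusted p = 9.8e-06) and Kif2c (1.80 ± 0.29 SE, adjusted p = 2.1e-05). Not called at day 12 were Cdc25b, Ckap2, Smc4 and Bub3, and all 4 were not called at the iPS stage as well, with Cdk1, Racgap1, Ndc80, Plk4, Nuf2 and Mad2l1. Leaving out day 6 SSEA1- replicate 3 gave 30 members at day 6, and leaving out iPS-stage SSEA1- replicate 3 gave 45 at the iPS stage. Shares of all genes in those fits are not reported here.

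By role, the day 12 difference was called in 5 of 6 genes of CDK1, cyclins and CDC25, 5 of 5 Aurora, Polo and NIMA kinases, 4 of 5 checkpoint genes, 4 of 4 genes of anaphase onset, 5 of 5 centromere and kinetochore genes, 3 of 3 passenger subunits, 8 of 8 kinesins, 4 of 5 spindle factors, 4 of 4 cytokinesis genes and 5 of 6 of topoisomerase and condensin. Their median changes ran from 1.46 (cytokinesis) to 2.06 (anaphase onset). Other measures were read in the same libraries. Pluripotent markers summed to 2902 to 5140 CPM in day 12 SSEA1+ libraries and 209 to 388 CPM in day 12 SSEA1- libraries. Fibroblast markers summed to 206 to 361 CPM in day 12 SSEA1+ and 5055 to 12278 CPM in day 12 SSEA1- libraries, and epithelial markers (10 genes) to 1521 to 2077 CPM in day 12 SSEA1+ and 393 to 474 CPM in day 12 SSEA1- libraries. None of the markers of these 3 lists was at 0 in all libraries of either group. Macrophage markers (12 genes) summed to 26, 38.2 and 29.8 CPM in day 12 SSEA1+ replicates 1, 2 and 3. In day 12 SSEA1- replicates 1, 2 and 3 they summed to 22, 448 and 47.4 CPM, so the fractions overlapped and replicate 2 stood apart. Reads assigned to no gene were 7.75 to 12.46% in day 12 SSEA1+ and 11.84 to 15.51% in day 12 SSEA1- libraries, which overlapped too. The part of cell composition and of these measures in the difference was not tested.

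**Figure D5:**
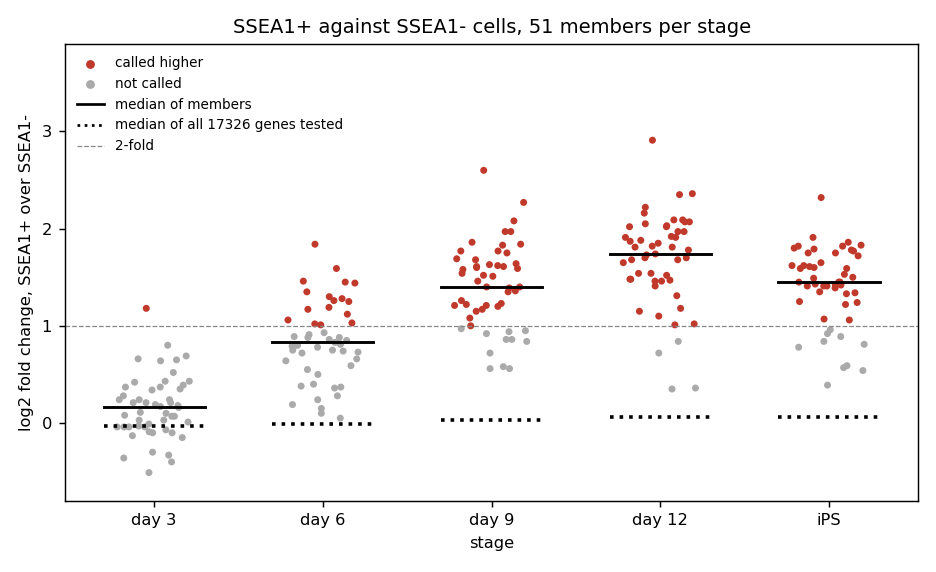
Log2 change of each of the 51 members in SSEA1+ over SSEA1- cells (y axis) at days 3, 6, 9, 12 and the iPS stage (x axis), with the members' median and the median of all genes drawn as lines. The members' median climbs from 0.16 at day 3 to 1.74 at day 12 and stands at 1.45 at the iPS stage, while that of all genes stays near 0.

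Whether the difference between the fractions itself differed between stages was tested as an interaction. The day 12 difference exceeded that of day 3 in 43 members, with 0 the other way, against 6.21% and 7.93% of all genes, and the median of the members was 1.61 beside 0.11 over all genes. Bub1 (2.18 ± 0.49 SE, adjusted p = 0.004) and Pttg1 (2.08 ± 0.35 SE, adjusted p = 4.4e-04) had the largest values. Not called were Aurkb, Cdc25b, Smc2, Smc4, Ncaph, Anln, Ckap2 and Bub3. Without day 3 SSEA1- replicate 3 the count was 28, and without day 12 SSEA1+ replicate 1 it was 25, with the shares of all genes in those fits not reported here. From day 12 to the iPS stage a change of the difference was called in 0 members, against 0.410% of all genes called higher and 1.44% lower. By edgeR 0 members had an unadjusted p under 0.05, and DESeq2 called 0. The values were negative in 48 of the 51 members, with a median of -0.30 beside -0.16 over all genes.

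Within SSEA1+ cells no step between neighbouring stages called a member. The count was 0 for day 6 over day 3, day 9 over day 6, day 12 over day 9 and the iPS stage over day 12 by edgeR, and 0 by DESeq2 as well, with 3, 0, 3 and 5 members at an unadjusted p under 0.05. Such unadjusted counts were not made over all genes. Over all genes 3.21%, 0.998%, 5.37% and 3.74% were called higher and 1.25%, 0.0808%, 3.45% and 5.75% lower. The median changes of the members were -0.32, -0.08, 0.25 and 0.27, beside 0.00, 0.00, 0.03 and -0.01 over all genes. Of the 51 changes, 50 were negative for day 6 over day 3 and 34 for day 9 over day 6. For day 12 over day 9, 44 were positive, and for the iPS stage over day 12, 45 were. The groups did not overlap in 34, 13, 13 and 13 members, against 26.7%, 18.0%, 34.4% and 32.2% of all genes. After the levels had been seen, the iPS stage was also set against day 3 in SSEA1+ cells, where 1 member was higher, Pttg1, and 1 lower, Cdc25b, against 22.9% and 16.7% of all genes. RLE size factors and DESeq2 each called 4, with Bub1 and Kif18a also higher, at 24.8% and 14.3% of all genes with RLE and 24.9% and 14.5% with DESeq2, and without a fold threshold 4 were higher and 4 lower. The median of the members was 0.17. Of the steps in SSEA1- cells, the first was the one in which members were called lower. Day 6 over day 3 called 24 members lower and 0 higher, against 1.24% of all genes called lower and 4.65% higher, with a median of -1.0. The smallest p were those of Cenpe (-1.40 ± 0.28 SE, adjusted p = 0.0039), Kif20a (-1.54 ± 0.31 SE, adjusted p = 0.0043) and Prc1 (-1.21 ± 0.25 SE, adjusted p = 0.0049). Leaving out 1 library moved this count much, to 5 without day 3 SSEA1- replicate 1 and 7 without day 6 SSEA1- replicate 2, and a fit of only these 2 groups called 9. Shares of all genes in those fits are not reported here. Day 9 over day 6 called 0 members, as it called 0% of all genes, and DESeq2 called 0 members. All 51 changes were negative, with a median of -0.63 beside -0.02 over all genes. An unadjusted p under 0.05 was found in 28 members, a count that was not made over all genes. Day 12 over day 9 called 0 by edgeR and 0 by DESeq2, with 0 members at an unadjusted p under 0.05 and a median of -0.05, against 0.0693% of all genes called higher and 0% lower. The iPS stage over day 12 called 1 member higher, Bub1 (1.13 ± 0.35 SE, adjusted p = 0.04), against 4.72% of all genes called higher and 2.50% lower. That count was 0 without any one of the day 12 SSEA1- libraries or without iPS-stage SSEA1- replicate 3, and 2 without iPS-stage SSEA1- replicate 2. In this step 48 of the 51 changes were positive, with a median of 0.58 beside 0.11 over all genes. By edgeR, 24 members had an unadjusted p under 0.05, a count that was not made over all genes. The groups did not overlap, in either direction, in 25 members, against 22.2% of all genes. Across the whole dated course, a comparison also chosen after the levels had been seen, day 12 SSEA1- cells were lower than day 3 SSEA1- cells in 49 members, with 0 higher, against 6.12% of all genes called lower and 16.3% higher. The groups did not overlap in any of the 51, against 51.2% of all genes without overlap and 24.2% lower without overlap. The median was -1.70, and leaving out any 1 library gave 49 or 50. Cenpe (-2.13 ± 0.28 SE, adjusted p = 1.3e-05), Hmmr (-1.99 ± 0.27 SE, adjusted p = 2.1e-05), Prc1 and Tpx2 (-1.86 ± 0.27 SE, adjusted p = 3.2e-05) had the smallest p. Pttg1 (-0.68 ± 0.24 SE, adjusted p = 0.031) and Bub3 (-0.99 ± 0.21 SE, adjusted p = 0.0011) stayed under 2-fold. Other measures moved between the same groups. Reads assigned to no gene were 11.84 to 15.51% in day 12 SSEA1- libraries and 5.32 to 6.95% in day 3 SSEA1- libraries. Epithelial markers (10 genes) summed to 393 to 474 CPM in day 12 SSEA1- and 23.3 to 36.1 CPM in day 3 SSEA1- libraries, with 0 of them at 0 in all libraries of either group. In the same order, pluripotent markers summed to 209 to 388 and 116 to 174 CPM, and muscle markers (8 genes) to 5.89 to 12 and 2.03 to 5.74 CPM. Neural markers (8 genes) summed to 281 to 402 and 749 to 1348 CPM. The sums of fibroblast, macrophage, endothelial and keratinocyte markers overlapped between these groups. The part of these measures in the fall of the members was not tested.

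Other genes of the cell cycle were counted from lists that were chosen with earlier results of these data known. The shares of all genes called higher and lower were 15.6% and 16.7% in day 3 SSEA1+ cells over MEFs, 18.0% and 18.0% in day 12 SSEA1+ over SSEA1- cells, and 16.3% and 6.12% in day 12 over day 3 SSEA1- cells. Of 86 other mitosis genes, such as APC/C subunits and kinetochore proteins, 58 were higher and 1 lower in day 3 SSEA1+ cells over MEFs, 58 higher and 0 lower in day 12 SSEA1+ over SSEA1- cells, and 0 higher and 51 lower in day 12 over day 3 SSEA1- cells. An example of the day 3 comparison is Cep55, a gene of abscission (2.31 ± 0.27 SE, adjusted p = 2.6e-07). Plk2, a stress-responsive Polo kinase, was the 1 lower (-1.63 ± 0.58 SE, adjusted p = 0.024). Mki67, the proliferation marker Ki-67, was higher by 1.83 ± 0.36 (SE, adjusted p = 1.5e-04) at day 3 over MEFs and by 1.64 ± 0.35 (SE, adjusted p = 4.6e-04) between the fractions at day 12. Of 38 DNA replication genes, 37 were higher and 0 lower, 33 and 0, and 0 and 32 in the same comparisons. Mcm10, a replication initiation factor, was higher by 3.16 ± 0.37 (SE, adjusted p = 2.2e-07) in day 3 SSEA1+ cells over MEFs and by 2.58 ± 0.36 (SE, adjusted p = 3.7e-06) in day 12 SSEA1+ over SSEA1- cells. Of 13 genes of the G1/S transition (D and E cyclins, their kinases, E2F factors, Rb1 and Cdc25a), 6 were higher and 0 lower, 6 and 3, and 0 and 2. At day 3 those with the smallest p were not cyclins or kinases but E2f2, an E2F factor (3.27 ± 0.33 SE, adjusted p = 1.9e-08), Rb1, the retinoblastoma protein (2.68 ± 0.39 SE, adjusted p = 4.5e-06), and Cdc25a (1.24 ± 0.24 SE, adjusted p = 1.8e-04). At day 12 the kinase Cdk2 (1.41 ± 0.24 SE, adjusted p = 3.8e-05), E2f1 (1.27 ± 0.25 SE, adjusted p = 2.3e-04) and the phosphatase Cdc25a (1.65 ± 0.25 SE, adjusted p = 8.8e-06) were higher, and Rb1 (-1.16 ± 0.37 SE, adjusted p = 0.011) and the D cyclins Ccnd2 (-2.60 ± 0.54 SE, adjusted p = 3.3e-04) and Ccnd1 (-1.92 ± 0.57 SE, adjusted p = 0.0068) were lower, in SSEA1+ than SSEA1- cells.

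Of 18 regulators of mitotic genes, 7 were higher and 0 lower in day 3 SSEA1+ cells over MEFs, 6 and 1 in day 12 SSEA1+ over SSEA1- cells, and 0 and 6 in day 12 over day 3 SSEA1- cells. Foxm1, the forkhead factor that activates G2/M genes, had 375, 320 and 352 CPM at day 3, 210, 194 and 178 CPM at day 6, 143, 162 and 168 CPM at day 9, 110, 133 and 128 CPM at day 12, and 83.5, 95.9 and 107 CPM at the iPS stage in SSEA1+ cells. In SSEA1- cells Foxm1 had 220, 154 and 188 CPM at day 3, 84.2, 73.1 and 88.6 CPM at day 6, 59.7, 50 and 79.8 CPM at day 9, 48.8, 42.7 and 62.4 CPM at day 12, and 50.6, 27.7 and 54.6 CPM at the iPS stage. MEFs had 137, 60.7 and 61.6 CPM of Foxm1. The SSEA1+ libraries of the iPS stage were below those of day 3 by -1.87 ± 0.26 (SE, adjusted p = 1.5e-06), where the median change of the module was 0.17, and they were higher than the SSEA1- libraries of that stage by 1.10 ± 0.26 (SE, adjusted p = 9.2e-04). Mybl2, B-MYB, had 112, 117 and 127 CPM at day 3, 99.7, 104 and 114 CPM at day 6, 140, 190 and 224 CPM at day 9, 582, 619 and 413 CPM at day 12, and 566, 777 and 791 CPM at the iPS stage in SSEA1+ cells. In SSEA1- cells Mybl2 had 41.5, 43.7 and 54.5 CPM at day 3, 17.5, 25 and 38.1 CPM at day 6, 12.9, 18 and 35.8 CPM at day 9, 14.4, 39.4 and 35.9 CPM at day 12, and 20.5, 29.5 and 296 CPM at the iPS stage. MEFs held 30.2, 13.1 and 11.4 CPM of Mybl2. Its SSEA1+ libraries were high from day 12, iPS-stage SSEA1- replicate 3 stood at 296 CPM beside 20.5 and 29.5 CPM in replicates 1 and 2, and the iPS-stage SSEA1+ libraries exceeded those of day 3 by 2.58 ± 0.63 (SE, adjusted p = 0.0012). The regulator Rbl2, p130 of DREAM, was lower in SSEA1+ than SSEA1- cells at day 12 by -1.13 ± 0.22 (SE, adjusted p = 1.4e-04). Of 6 CDK inhibitors, 0 were higher and 2 lower in day 3 SSEA1+ cells over MEFs, 0 and 4 in day 12 SSEA1+ over SSEA1- cells, and 0 and 0 in day 12 over day 3 SSEA1- cells, where the smallest adjusted p of edgeR was that of Cdkn2c (-0.92 ± 0.39 SE, adjusted p = 0.069). Cdkn1a, p21, had 476, 438 and 350 CPM at day 3, 529, 306 and 189 CPM at day 6, 389, 238 and 209 CPM at day 9, 92, 204 and 224 CPM at day 12, and 242, 134 and 72.1 CPM at the iPS stage in SSEA1+ cells. In SSEA1- cells Cdkn1a had 494, 507 and 397 CPM at day 3, 766, 425 and 276 CPM at day 6, 728, 379 and 500 CPM at day 9, 643, 585 and 540 CPM at day 12, and 519, 593 and 551 CPM at the iPS stage. MEFs came to 129, 460 and 305 CPM of Cdkn1a. It was lower at day 12 in SSEA1+ than SSEA1- cells by -1.77 ± 0.45 (SE, adjusted p = 0.0023), and Cdkn2b, p15, by -3.36 ± 0.65 (SE, adjusted p = 1.6e-04).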

How the data were processed

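The data are bulk poly-A RNA-seq libraries, 33 in all, 3 for each of 11 groups. The authors deposited raw read counts per Ensembl gene for each library, 1 table per sample. STAR 2.3.0, HTSeq 0.6.0, Picard 1.100 and the build mm9 are named, without roles, in the submitters' processing notes. No source used here names the annotation release. The libraries came from a directional kit, but the deposited names speak of counting without strand. Reads from stretches that antisense or overlapping genes share therefore cannot be told apart. Exon lengths and shared exons were taken from the GENCODE annotation of GRCm38, not the build of the counts, so levels per kilobase are approximate. The summary lines of the counter were left out of library sizes. Of the uniquely aligned reads of a library, 4.42 to 15.51% were assigned to no gene, here and in the Results. The counter set 2.41 to 3.15% of them aside as ambiguous.

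Counts were analysed with R 4.3.3, edgeR 4.0.16 and limma 3.58.1. Genes were kept by filterByExpr (17326), scaled by TMM, and fitted over all 33 libraries with glmQLFit and tested with glmQLFTest, both robust, with 22 residual degrees of freedom. P-values were adjusted by Benjamini and Hochberg over all genes tested, and a gene was called at an adjusted p under 0.05 and at least 2-fold. DESeq2 1.42.0 was the alternative test. Tables and figures used Python 3.11.15, numpy 2.4.6, pandas 2.3.3 and matplotlib 3.10.9. The fit was tested on simulated data with known changes.

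Replicate numbers come from the labels. Whether they pair the groups was checked by the correlation of deviations from group means. Every pair was over 0.1 between the fractions at days 3 to 12, and those numbers were taken to pair. The same held for the steps of SSEA1- cells and for the steps of SSEA1+ cells from day 3 to day 12. It did not hold between the fractions at the iPS stage, in SSEA1+ comparisons of the iPS stage or in several comparisons with MEFs. The SE and p-values given come from the fit without a block, which leaves this pairing out. The fit with replicate number as a block was an alternative throughout. No 2 replicates of a group agreed within sampling noise (lowest chi-square per degree of freedom 13.1 over 33 pairs).

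The members and all gene lists were chosen with earlier results of these data known. Genes named with their values in every library were 16 set by name plus those with the smallest p, the largest change or no call where most were called; from other lists up to 3 genes per comparison by smallest p, plus Foxm1, Mybl2, Mki67 and Cdkn1a. Genes outside this rule were named after their values were seen. Comparisons of day 12 with day 3 SSEA1- cells and of iPS-stage with day 3 SSEA1+ cells were added after the levels had been seen. Cdkn2d was not analysed here. A gene of the other lists that this rule would name is not reported here.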

Additional observations from a re-analysis of the deposited data

Results flagged for a closer look

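The difference between SSEA1+ and SSEA1- cells was itself larger at day 12 than at day 3 in 43 of the 51 members, tested as an interaction in the edgeR fit, against 6.21% of all genes. On the log2 scale the day 12 difference exceeded the day 3 difference by 2.18 for the checkpoint kinase Bub1, 2.08 for securin (Pttg1), 1.93 for cyclin B1 (Ccnb1), 1.92 for the kinetochore gene Ndc80, 1.91 for the kinesin Kif20b, 1.90 for the spindle factor Dlgap5 and 1.85 for Hmmr. In SSEA1- cells 49 members were lower at day 12 than at day 3, and in SSEA1+ cells no step between neighbouring stages called a member. Still, in SSEA1+ cells 50 changes were negative for day 6 over day 3 and 34 for day 9 over day 6. For day 12 over day 9, 44 were positive, and for the iPS stage over day 12, 45 were. The count of 43 was 28 without day 3 SSEA1- replicate 3 and 25 without day 12 SSEA1+ replicate 1, with the shares of all genes in those fits not reported here. The marker sums and the share of reads assigned to no gene in the day 12 fractions were given beside that comparison, and their part in it was not tested.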

How the results depend on the processing

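The counts below are of members alone. Shares of all genes under these settings are not given beside them, so the counts show only how the calls depend on processing. Across 27 comparisons, the count of members called moved by no more than 1.5 times with replicate number as a block. With this pairing the day 12 difference between the fractions was called in 46 members (47 without it), the day 12 minus day 3 interaction in 45 (43 without it), and the calls lost were Plk1 in day 6 SSEA1+ cells over MEFs (0.99), Espl1 in day 3 SSEA1- cells over MEFs (0.99), Cenpe in day 12 SSEA1- cells over MEFs (-0.98), Nusap1 in iPS-stage SSEA1- cells over MEFs (0.99) and Nuf2 between the fractions at day 12 (0.99), each at the edge of 2-fold. In a fit of only the compared groups, SSEA1- cells over MEFs gave 5 at day 6, 1 at day 9 (higher, where the fit of all groups had more lower than higher), 2 at day 12 and 3 at the iPS stage; day 6 over day 3 SSEA1- cells gave 9 and the iPS stage over day 12 gave 0. That fit holds fewer libraries. Without a fold threshold the counts were 13, 7 and 7 for SSEA1- cells of days 6, 9 and 12 over MEFs, 1 for day 12 over day 9 SSEA1+ cells, 2 for the iPS stage over day 12 SSEA1- cells and 8 for iPS-stage over day 3 SSEA1+ cells. Without a filter on low counts they were 2 for day 12 SSEA1- cells over MEFs, 0 for the fractions at day 3 and 0 for the iPS stage over day 12 SSEA1- cells. RLE size factors and DESeq2 each called 4 members for iPS-stage over day 3 SSEA1+ cells; the cause was not tested. Leaving out 1 library gave 3 to 22, 1 to 7, 2 to 7 and 2 to 23 for SSEA1- cells of days 6, 9, 12 and the iPS stage over MEFs, 0 for the fractions at day 3 and 13 to 30 at day 6, 0 to 1 for day 12 over day 9 SSEA1+ cells, 5 to 28 for day 6 over day 3 and 0 to 2 for the iPS stage over day 12 SSEA1- cells, 2 to 3 for iPS-stage over day 3 SSEA1+ cells and 25 to 45 for the interaction. Of 6187 values of single called members under these alternatives, 515 lost their call and 0 changed sign. With 3 libraries a group, changes just under or over 2-fold are not separated.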
